A study of Mus musculus with 30 samples.

Results

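Chemokines and their receptors were followed across all 30 libraries of bone marrow-derived macrophages driven to become osteoclasts, the multinucleated cells that resorb bone. The genes were chosen by name: every protein-coding gene of the GENCODE M21 annotation whose symbol starts with Ccl, Cxcl, Ccr or Cxcr followed by a digit, and whose level was above 0 in at least 1 library. That rule gave 47 genes of the 45706 in the tables. At its edge, Ccl1 was above 0 in 1 library, with 0.343 transcripts per 1000000 (TPM), and 5 protein-coding candidates (Ccl19, Ccl21b, Ccl26, Ccl27b and Ccr6) were listed at 0 in every library. Only genes that averaged 1 TPM or more across all libraries were tested, which left 12614 genes and 28 of the 47 members. No tested member reached that limit through its highest group alone. Cxcl5, with a mean of 1.89 TPM, reached it largely through the few groups where it was high. Ccr7, with a mean of 2.49 TPM, did so largely through unmarked wild-type large cells. Cxcr6, with a mean of 1.19 TPM, lay just inside that limit, and Ccr2, the receptor for Ccl2, lay just outside it with a mean of 0.960 TPM.

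The cells came from C57BL/6J mice, either wild type or Terc-/-, which lack the RNA component of telomerase. They were grown on bone slices with 25 ng/ml MCSF, which keeps macrophages alive, and 100 ng/ml RANKL, which starts osteoclast formation, either for 2 days or until large multinucleated cells had formed. Each of the 10 groups had 3 libraries. The 2-day groups were wild type at 6 and at 20 months of age. Large-cell groups were wild type at 1, 6 and 20 months and Terc-/- at 1 and 6 months. A further set of 3 large-cell groups carries a mark in the sample titles whose meaning the labels do not give: "gaiwei" for wild type at 1 month, and "519" for Terc-/- at 1 and at 6 months. They are called marked here, and the other large-cell groups unmarked. The question was how age and loss of Terc alter gene expression in osteoclasts on bone. Nothing states whether the 3 libraries of a group came from separate mice or cultures, so a p-value measures the spread between libraries, which may be technical.

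Chemokines are small secreted proteins that steer cells along a gradient by binding G protein-coupled receptors on the cell surface. Macrophages exposed to interleukin-1, TNF or bacterial products secrete CXC ligands that attract neutrophils and CC ligands that attract monocytes, largely through NF-kB acting at their promoters. In bone, osteoclasts and their precursors carry receptors such as Ccr1 and Cxcr4, and stromal cells of the marrow secrete Cxcl12, which holds precursors in the marrow.

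Several libraries stood apart before any chemokine was considered. The 9 marked libraries are labelled as large multinucleated cultures, yet the summed level of 8 osteoclast markers was 644 to 2131 TPM in them against 4531 to 27774 TPM in the 15 unmarked large-cell libraries. All 3 unmarked wild-type 1-month libraries had Xist (46.6 to 84.1 TPM, against at most 0.254 TPM elsewhere) and were listed at 0 for the Y-linked Eif2s3y, which ranged from 12.1 to 82.0 TPM elsewhere. That difference cannot be told apart from any comparison that uses those libraries. Cxcr3 is the 1 member on the X chromosome. Replicate 2 of the unmarked wild-type 6-month large cells needed a scaling factor of 0.713 and widened the spread of its group. Terc was listed at 0 in all 12 Terc-/- libraries and also in 15 of the 18 wild-type libraries, so it checks no label. Sequencing depth is unknown, because TPM values keep no read totals.

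Many of these genes lie in genomic clusters, and promoters of the CXC cluster are shown because Cxcl1, Cxcl2 and Cxcl3 were among the largest differences described below. Cxcl5, Cxcl3, Cxcl15, Cxcl1 and Cxcl2 lie in that order on chromosome 5, between 90759360 and 90905938 in the coordinates of the annotation (build GRCm38). Genes outside the name rule may lie between them. RefSeq promoter windows of 300 bases (250 before to 50 after a start site, build GRCm38.p6) were matched for 34 of the 47 members. The stretches below end at the base before the start site and read 5′ to 3′ on the gene's strand. Capitals mark matches, on either strand, to GGGA and TTCC with any pair of bases between them (NF-kB type), GAAA and GAAA with any pair of bases between them (interferon-stimulated response element type) or TGACTCA (AP-1 type). No match to TTCNNNGAA (GAS type) lay in these 6 stretches. Cxcl1 is at chr5:90891125-90891244, Cxcl2 at chr5:90903779-90903898 and Cxcl3 at chr5:90785981-90786100, all on the plus strand. Cxcl10 is at chr5:92348890-92349109 on the minus strand, shown at greater length because its matches lie further upstream. Ccl3 is at chr11:83649379-83649498 on the minus strand and Ccl22 at chr8:94745564-94745683 on the plus strand, shown as genes that moved without a match in these windows. In the annotation Ccl22 begins at 94745590 and Cxcl2 at 90903871, inside the stretches shown, because the 2 sources differ in start site. Less sequence before those annotated starts was therefore searched.
Cxcl1: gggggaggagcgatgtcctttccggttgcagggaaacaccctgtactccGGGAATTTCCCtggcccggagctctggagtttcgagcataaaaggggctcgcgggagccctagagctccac
Cxcl2: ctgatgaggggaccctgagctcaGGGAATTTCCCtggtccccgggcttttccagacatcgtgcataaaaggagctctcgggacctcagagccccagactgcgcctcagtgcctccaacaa
Cxcl3: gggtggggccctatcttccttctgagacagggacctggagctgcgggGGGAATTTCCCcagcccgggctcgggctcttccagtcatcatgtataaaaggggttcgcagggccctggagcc
Cxcl10: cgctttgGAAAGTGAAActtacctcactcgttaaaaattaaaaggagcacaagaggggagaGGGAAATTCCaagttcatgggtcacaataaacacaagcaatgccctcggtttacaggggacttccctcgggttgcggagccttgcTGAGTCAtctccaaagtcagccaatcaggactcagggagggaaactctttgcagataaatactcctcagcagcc
Ccl3: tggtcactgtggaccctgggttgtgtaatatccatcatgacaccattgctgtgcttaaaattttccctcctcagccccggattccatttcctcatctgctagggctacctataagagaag
Ccl22: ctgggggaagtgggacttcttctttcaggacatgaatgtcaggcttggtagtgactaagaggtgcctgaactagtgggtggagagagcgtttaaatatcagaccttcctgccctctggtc

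Cxcl1, Cxcl2 and Cxcl3 shared an unbroken run of 11 bases, GGGAATTTCCC, beginning 71, 97 and 73 bases before their start sites. This run was noticed after reading the windows. It occurs in 14 of all 32851 promoter windows (0.0426%) and in no other member among the 34 with a window. The 13 members without a window, among them Ccl2, Ccl4, Ccl5, Ccl7 and the cluster gene Cxcl5, were not searched. A match of the NF-kB type was present in 6 of the 34 members with a window (17.6%; Ccl1, Ccr3, Cxcl1, Cxcl2, Cxcl3 and Cxcl10), against 1.63% of all genes with a window. The interferon-stimulated response element type was found in 2 members (5.88%, against 3.99% of all genes), TGACTCA in 6 (17.6%, against 5.95%) and TTCNNNGAA in 3 (8.82%, against 9.55%). These are matches of letters in a fixed window and carry no measurement of binding.

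**Figure D1:**
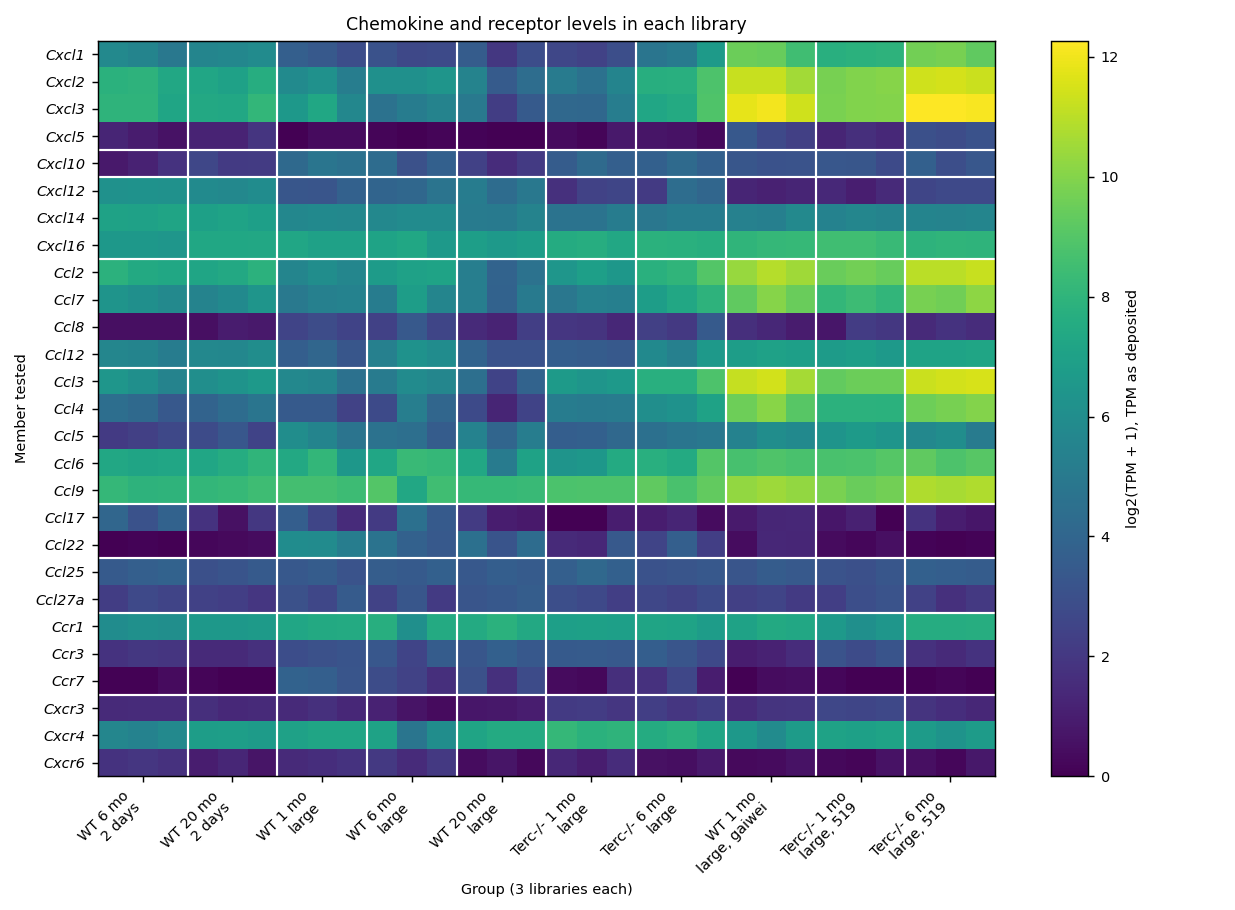
Levels of 27 of the 28 tested members (rows, ordered by role) in each of the 30 libraries (columns, 3 per group), as log2 of deposited TPM + 1. The CXC ligands Cxcl1, Cxcl2 and Cxcl3 and the CC ligands Ccl2, Ccl3, Ccl4 and Ccl7 are brightest in the 9 marked libraries at the right, while Ccl22 and Ccr7 are brightest in unmarked wild-type large cells.

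The neutrophil-attracting CXC ligands Cxcl1, Cxcl2 and Cxcl3, which signal through Cxcr2, included the member with the highest group mean, Cxcl3. Cxcl3 (ENSMUSG00000029379, chr5:90786103-90789600, plus strand) averaged 4760.3 ± 192 TPM (mean ± SD, n = 3, here and below) in 519-marked Terc-/- 6-month cultures. Its mean was 14.5 ± 13.5 TPM in unmarked wild-type 20-month large cells. Cxcl2 ran from 24.7 ± 17.5 TPM in unmarked wild-type 20-month large cells to 2685 ± 141 TPM in 519-marked Terc-/- 6-month cultures. Cxcl1 had its lowest mean in unmarked Terc-/- 1-month large cells, at 5.37 ± 1.27 TPM, and its highest in the 519-marked 6-month group, at 769.7 ± 126 TPM. The 2-day cultures lay between those extremes, with Cxcl2 means of 212 and 160.4 TPM at 6 and 20 months. Cxcl15, another ligand of this class, was at most 0.172 TPM. Cxcl5 stayed at or below 9.5 TPM, with means of 6.97 TPM in 519-marked 6-month and 6.30 TPM in gaiwei-marked cultures. Its means were 0.389 and 0.454 TPM in unmarked Terc-/- 1-month and 6-month and 0.184 TPM in unmarked wild-type 1-month large cells. Its place among the tested genes rests largely on marked cultures, which limits its calls in comparisons that use them. The receptors of these ligands were at low levels: Cxcr1 reached at most 0.284 TPM and Cxcr2 0.504 TPM in any library.

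**Figure D2:**
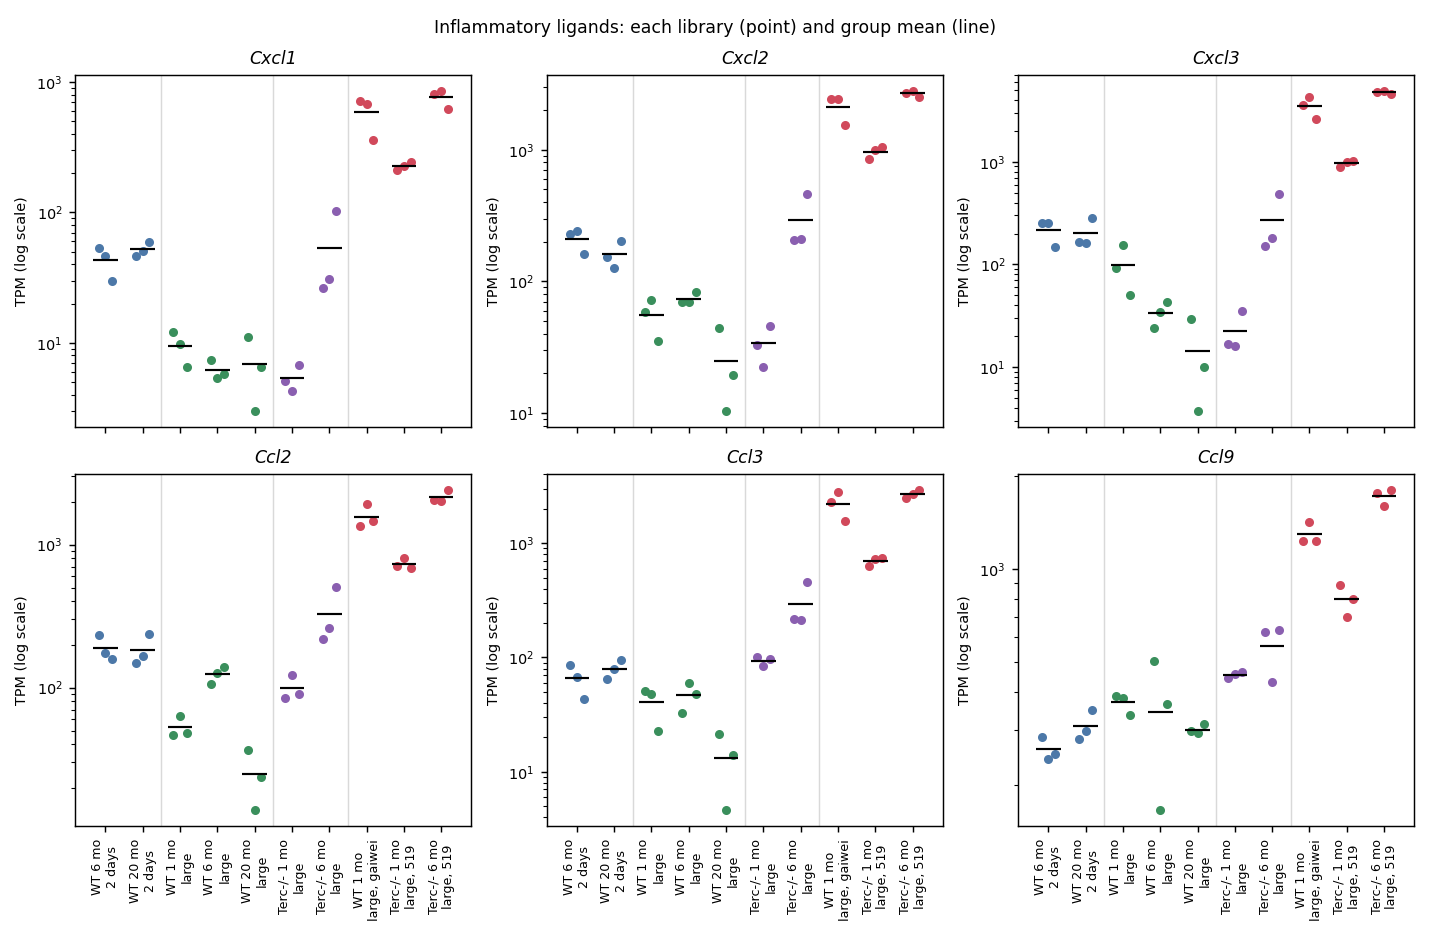
Level in TPM (log scale) of 6 inflammatory ligands in each library (points) with group means (lines) for the 10 groups, in blue for 2-day cultures, green for unmarked wild type, purple for unmarked Terc-/- and red for marked cultures. For each of the 6 ligands all 9 marked libraries lie above all 21 others.

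Ccl2, Ccl7 and Ccl12, which attract monocytes, were likewise lowest in wild-type 20-month large cells and highest in 519-marked 6-month cultures. Ccl2 (ENSMUSG00000035385, chr11:82035571-82037453, plus strand) averaged 24.7 ± 11.4 TPM in unmarked wild-type 20-month large cells and 2158 ± 217 TPM in 519-marked 6-month cultures. Ccl7, its neighbour on chromosome 11 with overlapping receptors, ranged over group means of 27.6 to 937 TPM in the same groups. Ccl12, a further Ccr2 ligand of the mouse, ran from 9.72 ± 3.71 TPM in wild-type 20-month large cells to 143 ± 5.92 TPM in 519-marked 6-month cultures. Ccl8 stayed at or below 10.3 TPM in every library, and the eotaxins Ccl11 and Ccl24, which attract eosinophils, at or below 0.182 and 1.72 TPM.

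The macrophage inflammatory proteins are counted here and below together with the related ligand Ccl5. Of these ligands, Ccl9 and Ccl6 were present at a high level in every group. Ccl9, which macrophages and osteoclasts secrete and which binds Ccr1, ranged over group means of 260.0 TPM in 2-day 6-month cultures to 1724 TPM in 519-marked 6-month cultures. Ccl6, another Ccr1 ligand, ranged over 109 to 540.1 TPM. Ccl3 (ENSMUSG00000000982, chr11:83647844-83649355, minus strand), a ligand of Ccr1, averaged 13.3 ± 8.39 TPM in wild-type 20-month large cells and 2721 ± 208 TPM in 519-marked 6-month cultures. Ccl4, a related macrophage inflammatory protein, ranged over 3.90 to 878 TPM in those groups. Ccl5, which attracts T cells and monocytes through receptors that include Ccr1 and Ccr3, differed from the others: its lowest mean was in 2-day 6-month cultures (4.15 TPM) and its highest in 519-marked 1-month cultures (88.8 TPM).

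Ccl22, which attracts Ccr4-bearing T cells, had a pattern of its own. Ccl22 (ENSMUSG00000031779, chr8:94745590-94751699, plus strand) was 62.4, 59.5 and 35.4 TPM in the 3 unmarked wild-type 1-month large-cell libraries. It was 24.5, 12.8 and 9.71 TPM in wild-type 6-month and 22.1, 8.0 and 18.9 TPM in wild-type 20-month large cells. Both 2-day groups were at or below 0.307 TPM and all 9 marked libraries at or below 1.61 TPM, so neither overlapped the unmarked wild-type large cells. Ccr7, the receptor that guides mature dendritic cells to lymph nodes, was likewise highest in unmarked wild-type 1-month large cells (11.3 ± 2.57 TPM) and at most 0.359 TPM in 2-day and marked libraries. The place of Ccr7 among the tested genes rests largely on unmarked wild-type large cells, which limits its calls in comparisons that use them. The 6 dendritic cell markers summed to 0.726 to 2.74 TPM in all libraries, with Flt3 at most 0.235 TPM. Of the list, Zbtb46 averaged 1.365, 0.867 and 1.53 TPM in unmarked wild-type large cells at 1, 6 and 20 months. It averaged 0.60 and 0.58 TPM in unmarked Terc-/- cells at 1 and 6 months and 0.113 to 0.273 TPM in marked cultures. Zbtb46 was highest at 2 days (2.18 and 1.55 TPM), where Ccl22 and Ccr7 were low. Xcr1 averaged 0.401 TPM in unmarked and 0.79 TPM in gaiwei-marked wild-type cultures. Their part was not tested. Ccl17, the other Ccr4 ligand, was highest in 2-day 6-month cultures (12.2 ± 4.17 TPM) and in wild-type 6-month large cells (11.8 ± 9.54 TPM).

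Among the other CXC ligands, Cxcl16 was present throughout and Cxcl12 and Cxcl14 were highest at 2 days. Cxcl16, a membrane-bound ligand of Cxcr6 that also takes up oxidised lipoprotein, ranged over group means of 89.7 TPM (2-day 6-month) to 346 TPM (519-marked 1-month). Cxcl12, the Cxcr4 ligand of marrow stroma, was 74.1 ± 1.55 TPM in 2-day 6-month cultures and 1.35 ± 0.114 TPM in gaiwei-marked cultures. Cxcl14, expressed by stroma and macrophages, was 134 ± 5.71 TPM in 2-day 6-month cultures and 27.6 ± 5.59 TPM in unmarked Terc-/- 1-month large cells. Cxcl10, an interferon-induced Cxcr3 ligand, was highest in unmarked wild-type 1-month large cells (22.3 ± 4.54 TPM) and lowest in 2-day 6-month cultures (1.5 ± 0.859 TPM). Cxcl9, the other Cxcr3 ligand of the set, reached at most 0.936 TPM and Cxcl13, a B-cell attractant, 4.20 TPM. Ccl25, which attracts T cells to gut and thymus, and Ccl27a, a skin T-cell attractant, varied little, with group means of 7.81 to 13.7 TPM and 3.19 to 9.77 TPM.

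The receptors at a high level were Ccr1 and Cxcr4. Ccr1 (ENSMUSG00000025804, chr9:123962124-123968692, minus strand), which binds Ccl3, Ccl5, Ccl6 and Ccl9, had group means between 66.2 TPM (2-day 6-month) and 194 TPM (519-marked 6-month). In order of mean, 519-marked 1-month (83.2 ± 12.8), 2-day 20-month (95.1 ± 4.63), Terc-/- 1-month (123 ± 2.90) and Terc-/- 6-month (130.5 ± 17.8) followed upwards from the lowest. Above them stood wild-type 6-month (150.4 ± 72.7), gaiwei-marked (157 ± 21.6), wild-type 1-month (169.8 ± 13.6) and wild-type 20-month large cells (189.7 ± 30.1). Neighbours in this order had overlapping SDs, except 2-day 20-month and Terc-/- 1-month cultures, so the order above Terc-/- 1-month is not set by these libraries. Replicate 2 of wild-type 6-month large cells had 67.4 TPM where its other 2 libraries had 203 and 181 TPM.

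Cxcr4 (ENSMUSG00000045382, chr1:128588199-128592293, minus strand), the Cxcl12 receptor, was highest in unmarked Terc-/- large cells. It was 287, 227 and 253 TPM at 1 month and 184, 221 and 145 TPM at 6 months in Terc-/- cells. Wild-type 20-month large cells had 141, 178 and 182 TPM and wild-type 1-month large cells 129.6, 145 and 149 TPM. Next in order came 519-marked 1-month (132 ± 7.84), 2-day 20-month (112 ± 6.5), 519-marked 6-month (96.1 ± 15.4) and gaiwei-marked cultures (85.8 ± 24.1), then wild-type 6-month large cells (74.6 ± 53.8) and 2-day 6-month cultures (48.3 ± 6.23). The SDs of neighbours in this order overlapped at every step but 2, from Terc-/- 1-month to Terc-/- 6-month and from 519-marked 1-month to 2-day 20-month.

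Ccr3 and Ccr7 were at lower levels. Ccr3, the eotaxin receptor, ranged over 1.39 ± 0.490 TPM in gaiwei-marked to 10.2 ± 2.15 TPM in wild-type 20-month large cells. Cxcr3 was at most 5.29 TPM and Cxcr6 at most 3.15 TPM. Ccr2, which marks monocytes and recognises Ccl2 and Ccl7, was above 0 in all 30 libraries but reached only 3.98 TPM, highest in wild-type 20-month large cells.

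**Figure D3:**
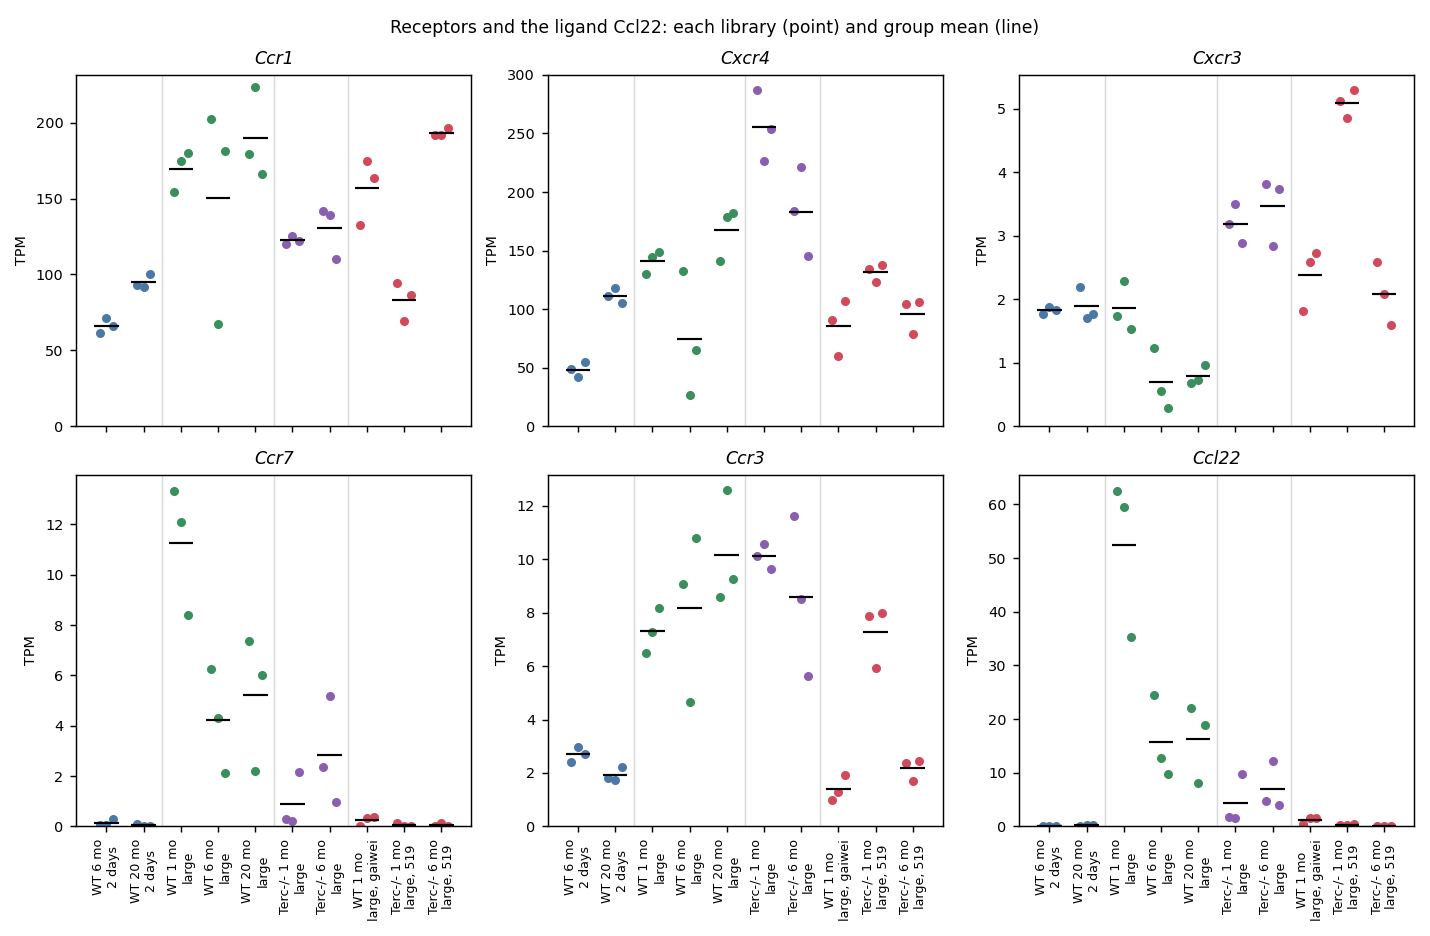
Level in TPM (linear scale from 0) of 5 receptors and the ligand Ccl22 in each library (points) with group means (lines), colours as in the plot of inflammatory ligands. Ccl22 and Ccr7 are above 2 TPM in all 9 unmarked wild-type large-cell libraries and below 2 TPM in all 2-day and marked libraries, and Cxcr4 is highest in unmarked Terc-/- 1-month cells.

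Summed over all 47 genes, chemokines and receptors made up 0.599% to 1.84% of all TPM in the marked libraries and 0.102% to 0.423% in the other 21. The highest unmarked library was replicate 4 of Terc-/- 6-month large cells. The sums were 17691 to 18415 TPM in 519-marked 6-month, 11306 to 16887 TPM in gaiwei-marked and 5987 to 6373 TPM in 519-marked 1-month cultures. They were 1024 to 1294 TPM in wild-type 20-month large cells, the lowest group.

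**Figure D4:**
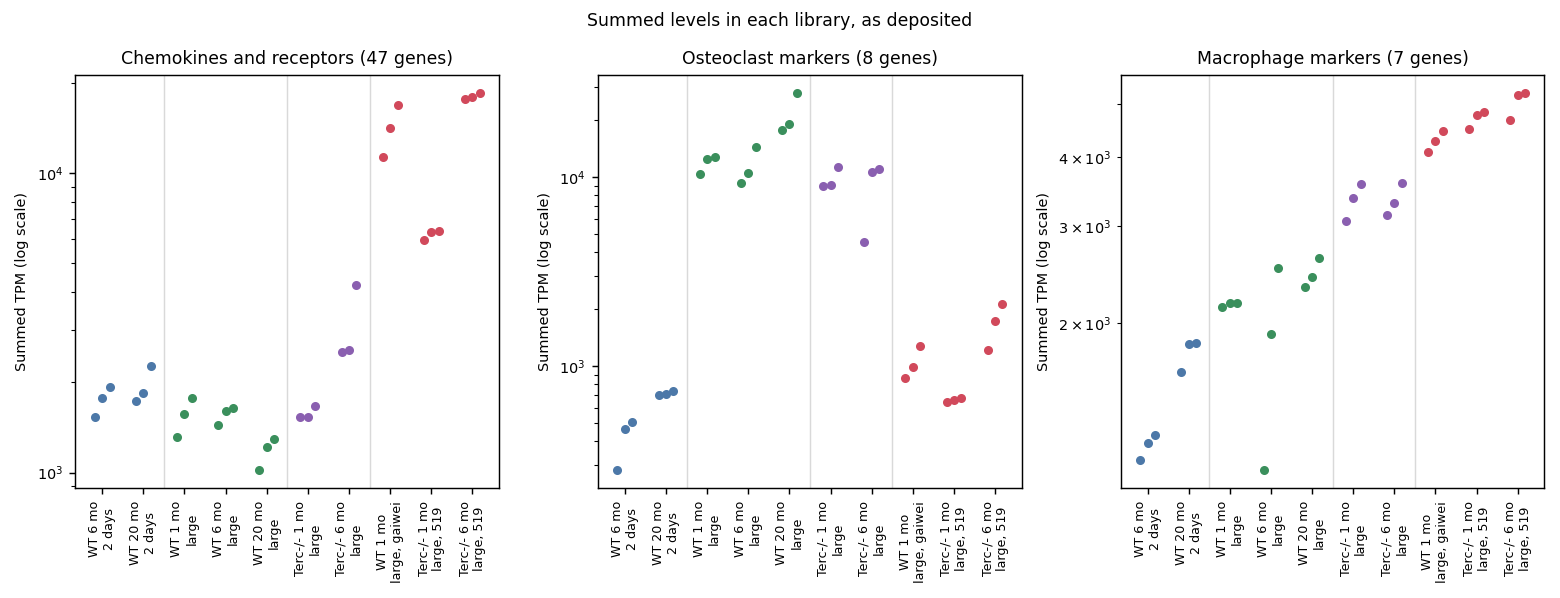
Summed TPM (log scale) of the 47 chemokine and receptor genes, 8 osteoclast markers and 7 macrophage markers, with the 3 libraries of each group drawn from lowest to highest. Marked libraries (red) lie at 5987 to 18415 TPM for the members, at 644 to 2131 TPM for the osteoclast markers and at 4080 to 5220 TPM for the macrophage markers.

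In the marked cultures, ligands for neutrophils and monocytes were the members with the largest rises. For Terc-/- at 1 month, Cxcl3 was 881, 984 and 1022 TPM in 519-marked and 16.9, 16.2 and 35.2 TPM in unmarked cultures. For Terc-/- at 6 months it was 4792, 4934 and 4554 against 153, 179.5 and 481 TPM, and for wild type at 1 month 3584, 4233 and 2626 in gaiwei-marked against 93.4, 155 and 49.96 TPM in unmarked cultures. In each pair all marked libraries lay above all unmarked ones. Because these are bulk cultures, a change in the share of a cell type and a change in RNA per cell cannot be told apart.

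In 519-marked against unmarked Terc-/- 1-month cultures, 16 of the 28 tested members were higher and 2 lower, with a median log2 change of 1.22. Of all genes tested, 18.5% were called higher and 15.1% lower, with a median of 0.01. Log2 changes throughout are of scaled TPM + 1, which understates the change of genes at low levels, and called means an adjusted p (limma, Benjamini-Hochberg over all 12614 genes) under 0.05. The largest rises were in Cxcl3 (5.90 ± 0.52, adjusted p = 4.37e-09), Cxcl1 (5.65 ± 0.42), Cxcl2 (5.31 ± 0.40) and Ccl12 (3.65 ± 0.32), all log2 change ± SE. Ccl7, Ccl2, Ccl3 and Ccl4 followed with log2 changes of 3.47, 3.36, 3.36 and 3.24. All 4 tested neutrophil-attracting CXC ligands were called higher, among them Cxcl5, which was tested largely because of its levels in marked cultures. All 5 macrophage inflammatory proteins, counted with Ccl5, were also called higher. Ccr1 (-0.10 ± 0.17), Ccr3 (-0.01 ± 0.19) and Cxcr4 (-0.47 ± 0.24) did not pass the test.

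In 519-marked against unmarked Terc-/- 6-month cultures, 15 members were higher and 4 lower, with a median of 0.81. The background was 14.4% of all genes higher and 13.8% lower. Cxcl3 (4.61 ± 0.52, adjusted p = 2.71e-07), Cxcl1 (4.37 ± 0.42), Cxcl2 (3.58 ± 0.40), Ccl3 (3.58 ± 0.44) and Ccl4 (3.58 ± 0.53) led the rises. Ccl2, Ccl7 and Cxcl5 followed with 3.09, 2.77 and 2.68. Ccl22 (-2.69 ± 0.43, adjusted p = 3.67e-05) and Ccr3 (-1.34 ± 0.19, adjusted p = 7.21e-06) fell. Cxcr4 was also lower (-0.63 ± 0.24, adjusted p = 0.0468), a call that was lost without replicate 1, 2 or 3 of the marked group or replicate 1 or 2 of the unmarked group (adjusted p over all alternatives 0.00416 to 0.185).

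In gaiwei-marked against unmarked wild-type 1-month cultures, 16 members were higher and 6 lower, with a median of 0.77. Here the background was itself large, with 24.2% of all genes higher and 22.4% lower. Ccl4 rose most (7.0 ± 0.53, adjusted p = 1.95e-10), from 10.3, 10.3 and 4.28 TPM to 761, 1092 and 544 TPM. Ccl3 (6.35 ± 0.44), Cxcl1 (6.34 ± 0.42), Cxcl2 (5.82 ± 0.40), Cxcl3 (5.79 ± 0.52) and Ccl2 (5.43 ± 0.32) were close behind, and Ccl7 (4.89) and Ccl12 (3.83) after them. Ccl22 (-4.31 ± 0.43, adjusted p = 1.81e-08), Ccr7 (-3.11 ± 0.38, adjusted p = 3.02e-07), Cxcl12 (-1.84 ± 0.37), Ccr3 (-1.45 ± 0.19) and Cxcl10 (-0.84 ± 0.26) fell. The Cxcl10 call was lost when each group had a variance of its own. The Xist and Eif2s3y difference separates the same groups, so its part in these values cannot be told apart.

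Markers of other cells moved along with these differences. Osteoclast markers were called lower in the marked groups for 8 of 8 (Terc-/- 1 month), 7 of 8 (Terc-/- 6 months) and 7 of 8 genes (wild type), and macrophage markers higher for 5, 3 and 5 of 7, with 1 lower in Terc-/- at 6 months. Of 8 neutrophil markers, S100a8 was at 1434 to 2498 TPM (gaiwei), 1270.0 to 1376 TPM (519, 1 month) and 1193 to 3292 TPM (519, 6 months), against 2.99 to 201.5 TPM in the unmarked large cells. Camp, a granule gene of neutrophils, was 4.94 to 7.96, 3.51 to 3.73 and 2.78 to 5.77 TPM in these groups and at most 1.43 TPM in the unmarked large cells, and rose in each comparison (1.88 ± 0.24, 1.67 ± 0.24 and 2.82 ± 0.24, in the order Terc-/- 1 month, Terc-/- 6 months and wild type). S100a9 and Ngp, also on the list, were at most 2.65 and 0.216 TPM in the marked libraries, with S100a9 listed at 0 in 7 of 9. T and NK cell markers summed to at most 1.47 TPM there, with Cd3e at 0. In the wild-type pair, stromal markers summed to 174 to 290.0 TPM in gaiwei-marked and 489 to 1952 TPM in unmarked libraries. There 5 of 6 tested were lower, among them Col1a1 (-3.49 ± 0.36) and Col3a1 (-3.48 ± 0.44), and Dcn was higher (4.47 ± 0.43), beside the lower Cxcl12. In the Terc-/- pairs 2 and 1 of the 6 were lower. The part of these markers in the chemokine differences was not tested.

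The deposited TPM values, before the scaling that centres each library on the bulk of genes, gave fewer genes called higher over all genes in these comparisons, and as many or fewer members. The median of all genes then stood at -0.39, -0.26 and -0.49 for the Terc-/- 1-month, Terc-/- 6-month and wild-type pairs. Members called were 16 higher and 5 lower, 13 and 6, and 13 and 10. Over all genes the calls were 878 higher and 4812 lower, 884 and 3418, and 1225 and 6250, against 2330 and 1907, 1817 and 1743, and 3047 and 2820 after scaling. None of the genes named for these pairs changed direction. Ccr1, counted among the members called higher in the wild-type pair but not named there (0.44 ± 0.17, limma adjusted p = 0.0384), was less stable. Its log2 change ran from -0.12 to 0.54 over the alternatives. The call was lost in the deposited TPM, where its means were 157 TPM in gaiwei-marked and 169.8 TPM in unmarked cultures.

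The marked groups differed among themselves. In 519-marked Terc-/- against gaiwei-marked wild-type 1-month cultures, 2 members were higher and 6 lower, against 1.58% and 1.87% of all genes. Ccr3 was 7.89, 5.95 and 8.0 TPM in 519-marked and 0.976, 1.27 and 1.93 TPM in gaiwei-marked libraries, which did not overlap (1.88 ± 0.19, adjusted p = 9.18e-07). Cxcr3 was also higher (0.86 ± 0.17, adjusted p = 0.00261), and Ccr1 (-0.97 ± 0.17, adjusted p = 0.0012) and Cxcl5 (-1.48 ± 0.24, adjusted p = 0.000506) were lower. Cxcl3 (-1.89 ± 0.52, adjusted p = 0.0446), Ccl3 (-1.69 ± 0.44, adjusted p = 0.0324), Ccl2 (-1.14 ± 0.32, adjusted p = 0.0461) and Ccl9 (-0.76 ± 0.19, adjusted p = 0.0228) passed narrowly. Those 4 calls did not survive leaving out either of gaiwei replicates 1 and 2 or 519 replicates 2 and 3, nor, except for Ccl9, 519 replicate 1, and Ccl2 was also lost without gaiwei replicate 3. The count then fell to 4 or 5, and it was 5 with a pseudocount of 0.1 or with no filter on low values.

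Within the 519-marked Terc-/- cultures, 6-month libraries had more of all 4 tested neutrophil-attracting CXC ligands and of 2 of 4 monocyte ligands than 1-month libraries. They also had more of 3 of 5 macrophage inflammatory proteins counted with Ccl5, while Ccl5 itself was lower. In all, 11 members were higher and 6 lower (background 12% and 11.8%). Ccl3 was 2512, 2724 and 2927 TPM at 6 months and 639, 724 and 736 TPM at 1 month (1.77 ± 0.44, adjusted p = 0.00591). Cxcl3 (2.12 ± 0.52, adjusted p = 0.00518), Cxcl1 (1.55 ± 0.42), Cxcl5 (1.46 ± 0.24) and Ccl2 (1.37 ± 0.32) were higher, as were Ccl4, Ccl7 and Cxcl2 (1.71, 1.47 and 1.29), which each lost the call without at least 1 library. Ccr3 (-1.59 ± 0.19, adjusted p = 2.75e-06) and Cxcr3 (-1.19 ± 0.17, adjusted p = 1.97e-05) were lower. Ccl5, Ccl27a, Cxcr4 and Cxcl16 were lower, with adjusted p of 0.0463, 0.0458, 0.0467 and 0.0228, each lost without 4 or more of the 6 libraries. Ccl5, Ccl27a and Cxcr4 were also lost in the deposited TPM. Without 519 1-month replicate 2, or 6-month replicate 2 or 3, 11 members were called in place of 17. In the deposited TPM, 12 were higher and 3 lower, with the median of all genes at 0.14 and 1393 genes higher and 729 lower. Marker sums differed without overlap between the same groups: they were 1216 to 2131 TPM at 6 and 644 to 678 TPM at 1 month for osteoclast markers, with 2 of 8 genes higher, and 251 to 424 and 78.4 to 96.8 TPM for stromal markers, with 5 of 6 higher. Mast cell and basophil markers summed to 14.3 to 19.4 and 2.30 to 6.07 TPM and B-cell markers to 0.411 to 1.2 and 3.60 to 6.22 TPM. Their part in the differences was not tested.

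Between 2 days and large cells, the inflammatory CXC ligands fell while Ccl22, Ccl5, Ccr1, Ccr3 and Ccr7 rose. At 20 months in wild type, Cxcl3 went from 166, 163 and 282 TPM at 2 days to 29.6, 3.76 and 10.0 TPM in large cells, without overlap (-3.93 ± 0.52, adjusted p = 2.15e-06). Ccl2 went from 149, 167 and 236 TPM to 36.5, 13.8 and 23.7 TPM, also without overlap (-2.78 ± 0.32, adjusted p = 2.21e-07). In all, 7 members were higher and 11 lower, against 18.7% and 17.5% of all genes, and the members' median was -0.51 against 0.00. Cxcl1 (-2.74), Cxcl2 (-2.72), Ccl3 (-2.55), Ccl12 (-2.31), Ccl4 (-2.01) and Cxcl14 (-1.67) fell as well. Rises were in Ccl22 (3.56 ± 0.43, adjusted p = 6.39e-07), Ccr7 (2.30), Ccl5 (2.08), Ccr3 (1.93), Ccl27a (1.29), Ccr1 (1.10) and Cxcr4 (0.70). The Cxcr4 call was lost without replicate 2 or 4 at 2 days or replicate 3 or 4 of the large cells, and in the deposited TPM, where 6 members were higher and 15 lower, with the median of all genes at -0.11 and 1683 genes higher and 2546 lower.

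At 6 months in wild type, 11 members were higher and 7 lower between 2 days and large cells, against 24.6% and 25.1% of all genes. Ccl22 (3.98 ± 0.43, adjusted p = 1.44e-07), Cxcl10 (2.68 ± 0.26, adjusted p = 2.09e-08), Ccl8 (2.44 ± 0.42), Ccl5 (2.22 ± 0.38), Ccr3 (1.52 ± 0.19) and Ccr1 (1.41 ± 0.17) rose. Cxcl3 (-2.26 ± 0.52, adjusted p = 0.00124), Cxcl1 (-2.21 ± 0.42), Cxcl12 (-1.59 ± 0.37), Cxcl2 (-1.10 ± 0.40) and Cxcl14 (-0.84 ± 0.16) fell. Cxcl16 rose by 0.89 ± 0.20 and Ccl12 by 0.81 ± 0.32, the latter with overlapping groups and lost without 5 of the 6 libraries in turn and in the deposited TPM. Cxcl2 lost its call without 2-day replicate 1 or 2 or large-cell replicate 1. The calls depended on the spread used. With one variance per group 9 members were called (8 higher, 1 lower), and none of the falls in Cxcl1, Cxcl2, Cxcl3 and Cxcl12 passed. With a fit of only these groups 11 were called (7 and 4). The rises of Ccl22, Cxcl10, Ccl8, Ccl5, Ccr1 and Ccr3 passed in both. In the deposited TPM 8 members were higher and 8 lower, with the median of all genes at -0.36 and 1627 genes higher and 5323 lower.

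The ages were compared directly through the difference of their differentiation changes. Of the members, 10 were called, all with a lower change at 20 than at 6 months, against 12.6% of all genes called lower and 12.4% higher. Cxcl10 was 0.767, 1.28 and 2.44 TPM at 2 days and 19.0, 7.22 and 12.6 TPM in large cells at 6 months, but 5.20, 3.28 and 3.38 and 4.22, 1.92 and 3.27 TPM at 20 months. Its changes differed by -2.85 ± 0.36, adjusted p = 6.08e-06. The difference was -3.11 ± 0.46, adjusted p = 3.76e-05 for Ccl12, -2.58 ± 0.45 for Ccl2, -2.48 ± 0.63 for Ccl3 and -2.40 ± 0.75 for Ccl4. With one variance per group, and with only these groups fitted, 5 members were called each time, Cxcl10, Cxcl16, Ccl2 and Ccl12 in both. Without 2-day 6-month replicate 3 the count was 6, and Ccl4 lost its call without that library, large-cell 6-month replicate 2, 2-day 20-month replicate 4 or large-cell 20-month replicate 3. In the deposited TPM 1 was higher and 7 lower, with the median of all genes at 0.24 and 1753 genes higher and 1022 lower.

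Markers of other cells differed over the same days. All 8 osteoclast markers rose at both ages. Stromal and osteoblast markers, 9 genes, summed to 1577 to 1865 TPM at 2 days and 566 to 959 TPM in large cells at 6 months, and to 652 to 843 and 2970.4 to 3646 TPM at 20 months. Cxcl12, a stromal gene, was at 57.9, 51.8 and 61.8 TPM at 2 days and 35.0, 19.1 and 29.3 TPM in large cells at 20 months (-0.93 ± 0.37, not called). The 20-month 2-day libraries alone held B-cell markers (83.0 to 106 TPM, against at most 10.8 TPM elsewhere) and S100a9 (18.3 to 60.2 TPM). Their part in the chemokine values was not tested.

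Some members differed with age at 2 days. Comparing wild type at 20 with 6 months, 5 members were higher and 2 lower, against 8.54% and 8.78% of all genes. Cxcr4 was 111, 118 and 105 TPM at 20 and 48.5, 41.9 and 54.4 TPM at 6 months, without overlap (1.17 ± 0.24, adjusted p = 0.00123). Cxcl16 was 158, 155 and 160.3 against 91.9, 92.2 and 84.9 TPM (0.79 ± 0.20, adjusted p = 0.00795). Ccl17 was lower (-2.12 ± 0.61, adjusted p = 0.018), a call lost without 20-month replicate 3 or 6-month replicate 1 or 3. Ccr1 (0.49 ± 0.17, adjusted p = 0.0494) passed narrowly and was lost without each of the 6 libraries in turn and in the deposited TPM. The count fell to 4 without 20-month replicate 3 or 6-month replicate 2 and to 3 without 6-month replicate 1. With a pseudocount of 0.1 it was 4, and Ccl17 was not called. In the deposited TPM 3 were higher and 3 lower.

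In large wild-type cells, Ccl2, Ccl3, Cxcl2, Cxcl3 and Cxcl10 were lower at 20 months than at 1 month and at 6 months. Against 1 month, 2 of 4 tested neutrophil-attracting CXC ligands, 1 of 4 monocyte ligands and 1 of 5 macrophage inflammatory proteins were lower, and Cxcl1 (-0.62 ± 0.42), Ccl4 (-1.06 ± 0.53), Ccl7 (-0.66 ± 0.43) and Ccl12 (-0.40 ± 0.32) did not pass. In all, 2 members were higher and 10 lower (background 9.2% and 13%), with a median of -0.66 against -0.01 for all genes. Cxcl10 was 4.22, 1.92 and 3.27 TPM at 20 months and 17.5, 26.5 and 23.1 TPM at 1 month, without overlap (-2.59 ± 0.26, adjusted p = 8.55e-08). Cxcl12 was higher (1.23 ± 0.37, adjusted p = 0.0181) and Cxcl3 (-3.06 ± 0.52, adjusted p = 0.000144), Ccl22 (-1.81 ± 0.43), Ccl3 (-1.78 ± 0.44), Cxcl2 (-1.42 ± 0.40), Ccl2 (-1.27 ± 0.32), Ccr7 (-1.17 ± 0.38) and Cxcl14 (-0.65 ± 0.16) lower. Ccl2 and Ccl3 lost the call without 20-month replicate 3, the lowest library for both. Cxcl2 and Ccr7 lost it without that library or 1-month replicate 1 or 3, and Cxcl12 without 1-month replicate 3 or 20-month replicate 1 or 4. With only these groups fitted, Cxcl2, Ccr7 and Ccl3 were not called, and with one variance per group Cxcl2 and Ccr7 were not. The 1-month libraries are those with Xist. Without scaling, 2 members were higher and 11 lower, with the median of all genes at 0.1 and 1248 genes higher and 1076 lower. Stromal markers summed to 2970.4 to 3646 TPM at 20 months and 489 to 1952 TPM at 1 month, with 3 of 6 tested higher and 1 lower. Osteoclast markers summed to 17857 to 27774 TPM at 20 months, 10369.6 to 12819 TPM at 1 month and 9328 to 14411 TPM at 6 months, so the oldest group did not overlap either, and 4 of 8 were called higher against 1 month and 3 of 8 against 6 months. The part of these markers in the lower ligands was not tested.

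Against 6 months, 2 members were higher and 14 lower at 20 months (background 12.7% and 14.9%). Ccl2 was 36.5, 13.8 and 23.7 TPM at 20 and 106, 127 and 139 TPM at 6 months, without overlap (-2.65 ± 0.32, adjusted p = 3.28e-06). Ccl12 (-2.75 ± 0.32, adjusted p = 2.72e-06), Ccl17 (-2.25 ± 0.61), Ccl3 (-2.18 ± 0.44), Ccl4 (-2.08 ± 0.53), Cxcl2 (-2.04 ± 0.40), Cxcl10 (-1.92 ± 0.26) and Cxcl3 (-1.80 ± 0.52) were lower. Cxcr4 was higher (1.14 ± 0.24, adjusted p = 0.00131). Only 3 members passed with one variance per group (Ccl2, Ccl12 and Cxcr6) and 3 with only these groups fitted (Ccl2, Cxcl10 and Cxcr6). Without 20-month replicate 3 the count was 10. Without scaling, 3 members were higher and 13 lower, with the median of all genes at 0.27 and 2519 genes higher and 1019 lower. Ccl3, Ccl4 and Ccl17 levels in the 6-month group rest partly on replicate 2 (59.4, 36.4 and 22.1 TPM), and Ccl4, Ccl17 and Cxcl3 lost the call without it. Cxcl3 also lost it without 20-month replicate 3.

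Against 1 month, 6-month large cells had 3 members higher and 3 lower (background 3.87% and 5.71%). Ccl12 was 39.4, 76.2 and 61.1 TPM at 6 and 11.6, 15.6 and 8.61 TPM at 1 month (2.35 ± 0.32, adjusted p = 4.07e-05). Ccl2 was higher (1.38 ± 0.32, adjusted p = 0.00732), Cxcr4 (-1.03 ± 0.24, adjusted p = 0.00679) and Ccl22 (-1.58 ± 0.43, adjusted p = 0.0232) lower, and Ccl22 lost the call without 1-month replicate 1 or 3 or 6-month replicate 4. No member passed with one variance per group or with only these groups fitted, where limma called 36 and 26 of all genes and 4 and 10 members had an unadjusted p under 0.05. Without 6-month replicate 1, 14 members were called. The deposited TPM gave 3 higher and 5 lower, with the median of all genes at -0.16. The 3 age comparisons of large cells share groups, so their values are not independent of each other.

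Loss of Terc went with lower Ccl22 and Ccr7 and higher Cxcr4 at 1 month. Ccl22 was 1.77, 1.62 and 9.71 TPM in unmarked Terc-/- and 62.4, 59.5 and 35.4 TPM in unmarked wild-type large cells, without overlap (-3.56 ± 0.43, adjusted p = 2.14e-06). Ccr7 was 0.301, 0.205 and 2.16 against 13.3, 12.1 and 8.38 TPM (-2.78 ± 0.38, adjusted p = 7.46e-06). Among the 28 members, 6 were higher and 7 lower, against 15.4% and 15.5% of all genes. Ccl17 (-2.22 ± 0.61), Cxcl3 (-1.99 ± 0.52), Ccl5 (-1.54 ± 0.38), Cxcl12 (-1.18 ± 0.37) and Cxcl14 (-0.88 ± 0.16) were lower. Ccl4 (1.99 ± 0.53), Ccl3 (1.30 ± 0.44), Ccl2 (0.93 ± 0.32), Cxcr4 (0.88 ± 0.24) and Ccl25 (0.54 ± 0.18) were higher. Without wild-type replicate 4 only 7 members were called, and Ccl2, Ccl3, Ccl4, Ccl25 and Cxcl12 were among those lost. Ccl17 was lost without wild-type replicate 1, Ccl2 and Ccl25 also without Terc-/- replicate 3, Cxcl12 also without Terc-/- replicate 1, and Ccl3 also without any 1 of the Terc-/- libraries. With one variance per group Ccl2, Ccl3 and Ccl25 were not called, and in the deposited TPM Cxcr4 was not.

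The wild-type libraries of that comparison carry Xist and the Terc-/- libraries do not, so genotype and that difference cannot be told apart. Stromal markers were also lower in Terc-/- (100.5 to 175 TPM against 489 to 1952 TPM, 4 of 6 tested genes lower and 1 higher), beside the lower Cxcl12 and Cxcl14. Dendritic cell markers, beside Ccl22 and Ccr7, summed to 1.28 to 1.73 TPM against 1.79 to 2.74 TPM. Macrophage markers, 7 genes, summed to 3062 to 3573 TPM in Terc-/- and 2140.5 to 2179.7 TPM in wild type. Their part was not tested.

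At 6 months, unmarked Terc-/- large cells had more of 3 of 4 tested neutrophil-attracting CXC ligands, 2 of 4 monocyte ligands and 3 of 5 macrophage inflammatory proteins than wild type, by the test that pools the spread over all groups. Ccl3 was 215, 213 and 463 TPM in Terc-/- and 33, 59.4 and 47.8 TPM in wild type, without overlap (2.45 ± 0.44, adjusted p = 0.000238). Members called were 11 higher and 6 lower, against 15.7% and 13.1% of all genes. Cxcl3 (2.68 ± 0.52), Cxcl1 (2.54 ± 0.42), Ccl4 (2.33 ± 0.53), Cxcl2 (1.74 ± 0.40), Cxcr4 (1.42 ± 0.24), Ccl7 (1.37 ± 0.43) and Ccl2 (1.18 ± 0.32) were higher. Ccl17 (-2.60 ± 0.61), Ccl22 (-1.23 ± 0.43), Cxcl14 (-0.92 ± 0.16) and Ccl25 (-0.51 ± 0.18) were lower. With one variance per group only Cxcr3 and Cxcr4 passed, and with only these groups fitted only Cxcr6. Cxcl3, for example, had an adjusted p of 0.000191 to 0.24 over the alternatives. Ccl2 was lost without Terc-/- replicate 4, Ccl7 without that library or wild-type replicate 1 or 4, and Ccl22 and Ccl25 without several single libraries, wild-type replicate 2 among them. The deposited TPM gave 11 higher and 4 lower, without Ccl22 and Ccl25, at a median of 0.13 over all genes. Macrophage markers summed to 3139.6 to 3598 TPM in Terc-/- and 1087 to 2522 TPM in wild type, with 4 of 7 higher. Of 3 tested neutrophil markers 2 were higher, and of 6 stromal markers 1 was higher and 4 lower. The part of these markers was not tested.

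In unmarked Terc-/- large cells, Cxcl1, Cxcl2 and Cxcl3 and the monocyte ligands Ccl2, Ccl7 and Ccl12 were higher at 6 than at 1 month. They are 3 of 4 tested neutrophil-attracting CXC ligands and 3 of 4 tested monocyte ligands, and Cxcl5 (0.09 ± 0.24) and Ccl8 (0.87 ± 0.42) did not pass. Cxcl2 was 206, 209.5 and 464 TPM at 6 months and 33.1, 22.5 and 46.0 TPM at 1 month, without overlap (3.02 ± 0.40, adjusted p = 3.13e-05). Cxcl3 was 153, 179.5 and 481 against 16.9, 16.2 and 35.2 TPM (3.41 ± 0.52, adjusted p = 0.000208). Of the members, 7 were higher and 2 lower, against 2.93% and 1.05% of all genes, with a median of 0.65 against 0.00. Cxcl1 (2.83 ± 0.42, adjusted p = 0.000133), Ccl12 (2.33 ± 0.32, adjusted p = 7.21e-05), Ccl7 (2.17 ± 0.43) and Ccl2 (1.63 ± 0.32) were the others called in every leave-out. Ccl3 (1.56 ± 0.44, adjusted p = 0.0474) and Ccl25 (-0.64 ± 0.18, adjusted p = 0.0462) were each lost without 5 of the 6 libraries in turn. Replicate 4 of the 6-month group was the highest for all 7 ligands that rose, with Cxcl1 at 103 TPM where the other 2 had 26.2 and 31.1 TPM. Without it, 6 members were higher and 1 lower, and the deposited TPM gave 7 and 1. That library, with Acp5 at 1860.0 TPM, also had the lowest osteoclast marker sum of the unmarked large cells (4531 TPM). Stromal markers were higher at 6 months for 4 of 6 tested genes (Col1a1 1.76 ± 0.36, Col1a2 1.73 ± 0.37, Dcn 1.76 ± 0.43 and Pdgfrb 1.09 ± 0.26) and summed to 236 to 754 TPM against 100.5 to 175 TPM, without overlap. All 4 calls were lost without 6-month replicate 4, and those of Col1a2, Dcn and Pdgfrb also without 1-month replicate 1, and that of Dcn without 1-month replicate 4. The basophil protease gene Mcpt8 (2.73 ± 0.55) and the macrophage gene Mrc1 (1.84 ± 0.23) were higher too. Of the other macrophage markers Cd68 was lower (-0.60 ± 0.16) and 5 were not called. The Cd68 call was lost without 1-month replicate 1 or 3 or 6-month replicate 2 or 4, in the deposited TPM and with no filter. With only these groups fitted, neither Cd68 nor Mcpt8 was called. The part of these markers in the change was not tested. Ccr1 (0.08 ± 0.17) and Cxcr4 (-0.49 ± 0.24) did not pass.

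The changes between these pairs were also tested against each other. The Terc-/- minus wild-type difference was higher at 6 than at 1 month for Cxcl3 (4.67 ± 0.74, adjusted p = 0.000397), Cxcl1 (3.21 ± 0.59), Cxcl2 (2.40 ± 0.56), Ccl22 (2.34 ± 0.61) and Ccr7 (2.15 ± 0.53), and lower for Ccl25 (-1.05 ± 0.25). Of the members, 6 were called higher and 3 lower, against 2.79% and 0.785% of all genes. With one variance per group limma called none (10 members had an unadjusted p under 0.05), with only these groups fitted only Cxcl3 was, and the deposited TPM gave 7 higher and 1 lower, with the median of all genes at 0.17. Without Terc-/- 1-month replicate 1 or 3, wild-type 1-month replicate 3 or Terc-/- 6-month replicate 2, 3 to 5 members were called. Cxcl2, Ccl22, Ccr7 and Ccl25 each lost the call without at least 2 single libraries, Terc-/- 1-month replicate 3 among them. This comparison uses both the libraries with Xist and the variable 6-month wild-type group.

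The 519-marked minus unmarked difference in Terc-/- cells also depended on age for some members: 3 were called higher and 4 lower at 6 than at 1 month, against 1.96% and 2.71% of all genes. Ccl12 (-2.10 ± 0.46, adjusted p = 0.00832), Ccr3 (-1.33 ± 0.27, adjusted p = 0.0045), Cxcr3 (-1.27 ± 0.23, adjusted p = 0.00205) and Ccl5 (-1.93 ± 0.54, adjusted p = 0.0385) had the lower changes. Cxcl5 (1.37 ± 0.34, adjusted p = 0.0203), Ccl25 (1.01 ± 0.25, adjusted p = 0.0229) and Ccr1 (0.96 ± 0.24, adjusted p = 0.0236) had the higher ones. Cxcl5 was lost without 3, Ccr1 without 4, Ccl25 without 6 and Ccl5 without 10 of the 12 libraries in turn. Without 519 1-month replicate 2 or unmarked 6-month replicate 4, 4 members were called, and with one variance per group 11 were. In the deposited TPM 2 were higher and 3 lower, without Ccr3, Ccr1 and Ccl5, at a median of 0.13 over all genes, of which 144 were higher and 133 lower.

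**Figure D5:**
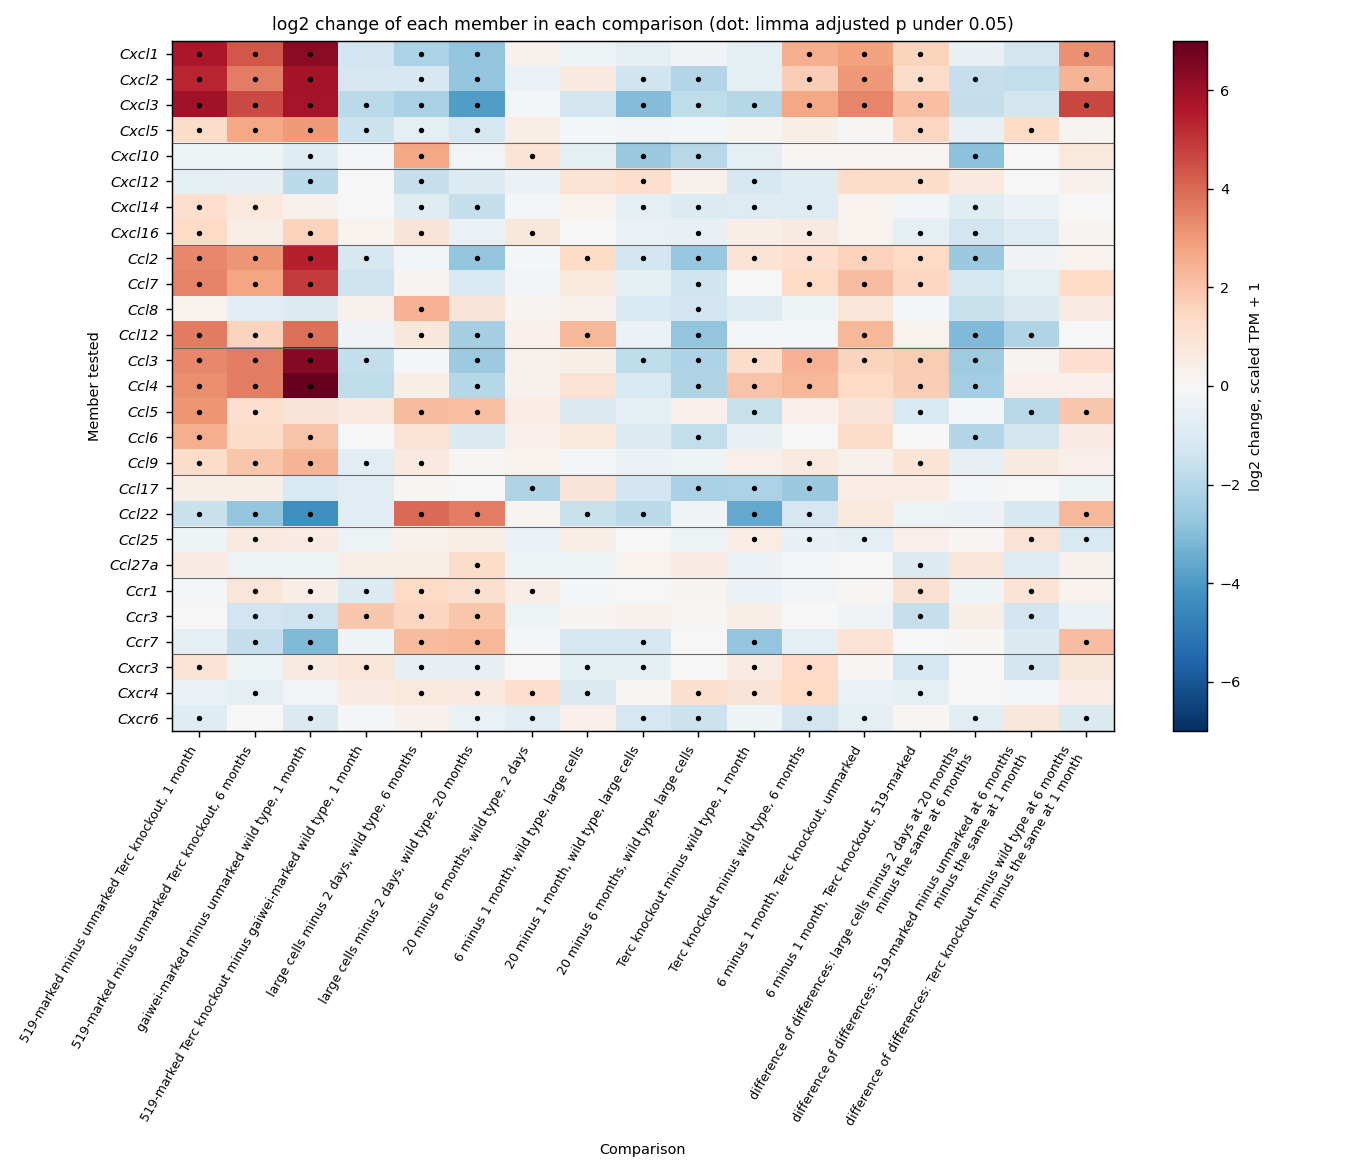
Log2 change (scaled TPM + 1; red higher, blue lower) of 27 of the 28 tested members (rows, by role) in the 17 comparisons (columns), with a dot where limma's adjusted p was under 0.05. The first 3 columns, marked against unmarked cultures, hold the largest values, up to 7.0 for Ccl4, and columns that share a group are not independent.

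Other genes of the chemokine system were read from lists. The cytokine list had 5 tested genes: Il1a, Il1b, Il6, Tnf and Il10. All 5 were higher in the marked cultures of Terc-/- at 1 month and of wild type at 1 month, and 4 were higher in Terc-/- at 6 months. Of all genes, 18.5%, 24.2% and 14.4% were higher there, in that order. Il1b was 834, 778 and 906 TPM in 519-marked and 6.94, 7.26 and 19.6 TPM in unmarked Terc-/- 1-month cultures (6.72 ± 0.51, adjusted p = 3.65e-10). Il6 (4.27 ± 0.32), Il1a (5.86 ± 0.53) and Tnf (1.11 ± 0.26) rose there too. In unmarked Terc-/- cells, Il6 (3.65 ± 0.32, adjusted p = 7.3e-08), Il1b (3.70 ± 0.51) and Il1a (3.69 ± 0.53) were higher at 6 than at 1 month, beside 2.93% of all genes. At 20 months, 3 of 5 were lower in large cells than at 2 days (Tnf -2.04 ± 0.26, Il1a -3.13 ± 0.53, Il6 -1.70 ± 0.32), beside 17.5% of all genes. At 6 months 2 were lower (Il1a -2.64 ± 0.53 and Il6 -1.02 ± 0.32) and 2 higher, among them Tnf (0.64 ± 0.26), beside 25.1% and 24.6% of all genes. The Tnf call was lost without 5 of the 6 libraries in turn and in the deposited TPM, and that of Il6 without 2-day replicate 2.

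Of 10 NF-kB factors and feedback genes, 3, 4 and 8 were higher and none lower in the 3 marked comparisons, in the order Terc-/- 1 month, Terc-/- 6 months and wild type, beside 18.5%, 14.4% and 24.2% of all genes called higher. Nfkbiz, an inducible nuclear co-factor of NF-kB, was called in each (2.28 ± 0.17, 1.64 ± 0.17 and 2.48 ± 0.17) and was also the 1 gene of the list called between 6 and 1 month in unmarked Terc-/- cells (1.34 ± 0.17). Interferon regulatory and STAT factors were mixed in these comparisons, with 2, 3 and 5 of 10 higher and 3, 4 and 5 lower. Of all genes, 18.5%, 14.4% and 24.2% were higher there and 15.1%, 13.8% and 22.4% lower. Irf7, which drives interferon genes, fell in all 3 (-1.30 ± 0.31, -2.17 ± 0.31 and -1.76 ± 0.31), and Irf8, a macrophage factor, rose (1.25 ± 0.10, 0.52 ± 0.10 and 1.75 ± 0.10).

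Of 22 genes that carry receptor signals inside the cell, 9, 7 and 17 were higher and 1, 2 and 1 lower in the marked comparisons, beside 18.5%, 14.4% and 24.2% of all genes higher and 15.1%, 13.8% and 22.4% lower. Gng2, a G protein gamma subunit, rose in each (1.29 ± 0.16, 1.26 ± 0.16 and 2.27 ± 0.16). In Terc-/- against wild type at 1 month, 17 of 22 were also higher and 1 lower, beside 15.4% and 15.5% of all genes. The gene with the smallest p was Ptk2b, a tyrosine kinase (0.55 ± 0.08, adjusted p = 1.78e-05), and the largest rise was in Pik3r5, a phosphoinositide 3-kinase subunit (1.15 ± 0.17). That comparison shares the unmarked wild-type libraries with the gaiwei comparison. Between 6 and 1 month in unmarked Terc-/- cells limma called none of the 22, and 3 had an unadjusted p under 0.05.

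Chemokines whose names fall outside the rule included abundant transcripts. Pf4, a CXC ligand of platelets and macrophages, averaged 13961 ± 803 TPM in 519-marked 6-month cultures and 444 ± 69.2 TPM in unmarked Terc-/- 1-month large cells. It rose in each marked comparison (4.79 ± 0.40 for Terc-/- at 1 month) and between 1 and 6 months in unmarked Terc-/- cells (3.25 ± 0.40, adjusted p = 1.46e-05). Ppbp, the neighbouring platelet CXC gene, did so too (4.91 ± 0.41 and 3.83 ± 0.41). The platelet lineage genes Itga2b and Gp9 were at most 2.81 and 0.429 TPM in any library. Of 5 tested atypical and other receptors, Cmklr1, the chemerin receptor, was higher in all 3 marked comparisons (1.74 ± 0.20, 1.81 ± 0.20 and 1.60 ± 0.20). Cx3cr1, the fractalkine receptor, was lower in 519-marked than in unmarked Terc-/- 6-month cultures (-1.33 ± 0.24, limma adjusted p = 0.000172).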

How the data were processed

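RNA-seq of 30 libraries, 3 in each of 10 groups, was read from 5 tables that hold 1 column per library. The deposited values were taken as transcripts per 1000000 (TPM) made by the authors, because each column sums to 1000000 over genes. Between 1.45% and 4.29% of low values per library lay at whole multiples (tolerance 0.01) of the smallest value, so read counts could not be recovered and depth is unknown. HTSeq and the mm10 genome are named per the submitters' processing notes. The aligner and all versions are not given in the sources used here, nor whether strand was used, so reads of overlapping or near-identical genes may be split. Of the 45706 gene identifiers, 45143 were matched to GENCODE M21 and 563 were not.

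Libraries were scaled to each other by trimmed mean log ratios (leaving out the outer 30% of log ratios and 5% of mean levels on either side). A pseudocount of 1 was added and log2 taken. The 12614 genes averaging 1 TPM or more were fitted in 1 limma model with all 10 groups, a trended variance and robust moderation, and p-values were adjusted by Benjamini-Hochberg over all genes within each of 17 contrasts. Called means an adjusted p under 0.05. The procedure was tested on simulated data. Levels in the text are deposited TPM.

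Samples were grouped by their titles, and no 2 libraries held identical values. Alternatives were the deposited TPM without scaling, a pseudocount of 0.1, no filter on low values, the replicate number as a block, one variance per group (limma array weights), a fit of only the groups compared and leaving out each library in turn. Each contrast names the called members that reached a mean of 5 TPM in a group compared, up to 8 rises and 8 falls by log2 change, or 5 each way for differences of changes. Of the tested members, 1 is counted in totals and not reported here by name. Any gene named beyond that was chosen after its values were seen. The members and the gene lists were chosen with earlier results of these data known. Promoter windows are from RefSeq tables, and the 13 members with no window were not searched for motifs. Tools were Python 3.11.15, pandas 2.3.3, numpy 2.4.6, scipy 1.17.1, matplotlib 3.10.9, R 4.3.3 and limma 3.58.1.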

Additional observations from a re-analysis of the deposited data

Results flagged for a closer look

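The following log2 differences are listed because the change of a member differed between groups by a test of the difference itself, limma's adjusted p being under 0.05. No explanation was tested for any of them. They are among the members with the largest values of those called, so their size is in part a result of that choice.

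The change from 2 days to large cells in wild type was lower at 20 than at 6 months for Ccl12 (-3.11), Cxcl10 (-2.85), Ccl2 (-2.58), Ccl3 (-2.48) and Ccl4 (-2.40). The 519-marked minus unmarked difference in Terc-/- cells was higher at 6 than at 1 month for Cxcl5 (1.37), Ccl25 (1.01) and Ccr1 (0.96). It was lower at 6 months for Ccl12 (-2.10), Ccl5 (-1.93), Ccr3 (-1.33) and Cxcr3 (-1.27). The Terc-/- minus wild-type difference was higher at 6 than at 1 month for Cxcl3 (4.67), Cxcl1 (3.21), Cxcl2 (2.40), Ccl22 (2.34) and Ccr7 (2.15), and lower for Ccl25 (-1.05).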

How the results depend on the processing

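Of 158 member values named for the 17 comparisons, 82 kept their direction and their call under every alternative run, and none of the 2004 alternative values changed direction. A call was lost in 302 of them: 169 with 1 library left out, 42 with one variance per group, 39 with only the groups compared fitted, 18 with no filter, 14 in the deposited TPM, 13 with a pseudocount of 0.1 and 7 with the replicate block. The number of members called moved by over 1.5 times as follows; the cause was not tested. With one variance per group it went from 18 to 9 for wild type at 6 months, large cells against 2 days, from 6 to 0 for wild-type large cells at 6 against 1 month, from 16 to 3 at 20 against 6 months and from 17 to 2 for Terc-/- against wild type at 6 months. It went from 10 to 5 for the difference of the differentiation changes, from 7 to 11 for that of the 519-marked changes and from 9 to 0 for that of the Terc-/- changes. With only the groups compared, which leaves fewer libraries to estimate the spread, the same comparisons gave 11, 0, 3, 1, 5 and 1, without the 519-marked one, which did not move. With a pseudocount of 0.1, 519-marked against gaiwei-marked went from 8 to 5 and 20 against 6 months at 2 days from 7 to 4; with no filter the former was also 5.

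With 1 library left out, the members called ranged from 17 to 18, 17 to 20 and 20 to 23 for the marked against unmarked pairs (Terc-/- 1 month, Terc-/- 6 months, wild type) and from 4 to 8 between the marked 1-month groups. The range was 15 to 20 and 16 to 20 for differentiation at 6 and 20 months, and 3 to 6 for age at 2 days. For wild-type large cells it was 4 to 14 (6 against 1 month), 8 to 15 (20 against 1) and 10 to 17 (20 against 6). It was 7 to 13 and 14 to 17 for Terc-/- against wild type at 1 and 6 months, 6 to 8 and 11 to 14 for age in unmarked and 519-marked Terc-/- cells, and 6 to 13, 4 to 7 and 3 to 11 for the differences of changes (differentiation, 519 mark, Terc-/-).

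The groups share replicate numbers, but the numbers do not pair the libraries by the labels, and correlations of same-numbered deviations ran from -0.596 to 0.33. In no comparison with 3 shared numbers were all of them over 0.1. With 2 shared numbers, both were over 0.1 for gaiwei-marked against unmarked wild type (0.229 and 0.246). The same held for 6 against 1 month in unmarked Terc-/- cells (0.169 and 0.33), so some pairing there is not excluded. With the replicate number as a block, 18, 20 and 21 members were called for the marked pairs, 6 between the marked 1-month groups, 17 and 18 for differentiation, 5 for age at 2 days, and 7, 12 and 14 for age in wild-type large cells. The block gave 13 and 17 for Terc-/- against wild type, 6 and 17 for age in Terc-/- cells and 8, 6 and 9 for the differences of changes, all within 1.5 times of the values without it. Depth is unknown, so a level listed at 0 sets no limit.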
